A study of Mus musculus with 6 samples.

Results

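Coenzyme A, the carrier of acyl groups in fatty acid oxidation and synthesis, was followed through 10 genes of its synthesis and breakdown in mouse liver. All probe sets naming exactly 1 of these genes were taken, which gave 24 of the 45037 probe sets tested, with at least 1 for each of the 10 genes. The genes are the pantetheinases Vnn1 and Vnn3, the pantothenate kinases Pank1, Pank2 and Pank3, the later synthesis enzymes Ppcs, Ppcdc and Coasy, and the hydrolases Nudt7 and Nudt19. They were grouped with the difference of Vnn1 between these same arrays in view, so the differences below describe the mice measured and are not independent evidence for the group.

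Mice of the 6C+4CP group ate 6% casein plus 4% fish collagen peptide, and mice of the 10C group ate 10% casein. Both were low-protein diets based on AIN-93M, a purified rodent diet, with cornstarch in place of the protein left out, and both were fed for 10 weeks. Each group gave 3 arrays, each from 1 male BALB/cCrSlc mouse of 17 weeks, and the 3 mice were picked from 12 per diet for a medium gain in weight per amount of food. Livers were sampled in the morning after a fast of 3 h. The cut in casein cannot be told apart from the added collagen peptide, and another group named in the design text is not analysed here.

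Cells make coenzyme A from pantothenate, vitamin B5. Pantothenate kinase adds a phosphate in the first and controlling step, Ppcs adds cysteine, Ppcdc removes the carboxyl group, and Coasy completes the molecule in its last reactions. Nudix hydrolases such as Nudt7 and Nudt19 cut coenzyme A inside peroxisomes, and vanins outside the cell split pantetheine, a breakdown product, into pantothenate, which can be used again, and cysteamine. Vnn1 and Pank1 are known targets of PPARa, the lipid-sensing nuclear receptor, in mouse liver.

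Values are the authors' processed array values, which behave as logarithms and are read here as log2. No label or header states the base, and every fold below rests on this reading. Array medians ran from 6.306 to 6.308. In most probe sets the 6 arrays have a common value, and only 7791 of 45037 (17.3%) ranged over more than 0.01. Those are called varying here, and a shared value does not show whether a level differed between mice. Of the 24 probe sets of the group 13 varied, from 7 genes. The narrowest range among them was 0.092, in Coasy, and the widest range among the other 11 was 1.55e-07. Across varying probe sets, which are not independent replicates, the values of 10C replicate 3 had a closer correlation with those of 6C+4CP replicate 2 (r = 0.985) than with 10C replicates 1 and 2 (0.971 and 0.973), so values without 10C replicate 3 or 6C+4CP replicate 2 are given where they matter.

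The vanins, the kinases Pank1 and Pank3 and Ppcs had higher values in 6C+4CP livers, and Nudt7 had lower ones. Coasy differed little at its only varying probe set. In bulk liver fewer cells of a type and less RNA per cell cannot be told apart. Of the 13 varying probe sets 9 had a higher mean in 6C+4CP and 4 a lower one, while 47.9% of all varying probe sets had a higher mean there. The 3 mice of one diet lay wholly apart from the 3 of the other in 9 of the 13, 8 of them higher in 6C+4CP and 1 lower. Among all varying probe sets 19.9% lay apart in this way, 10.8% higher and 9.11% lower. The median difference over the 13 was 0.27, against -0.0040 over all varying probe sets.

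In limma across all 45037 probe sets, 0 of the 24 passed an adjusted p under 0.05, and 109 probe sets (0.242%) passed in all. At an unadjusted p under 0.05 there were 9 of the 24, against 6.42% of all probe sets. Since the genes were grouped with this comparison in view, nothing is read from these shares. Of the 109 called probe sets 103 were not varying, and the adjusted p from limma of the 13 varying members ran from 0.235 to 1. In a fit of varying probe sets alone, the adjusted p from limma of the 13 ran from 0.101 to 0.968, and 0 of all 7791 passed (1140 at an unadjusted p under 0.05).

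**Figure D1:**
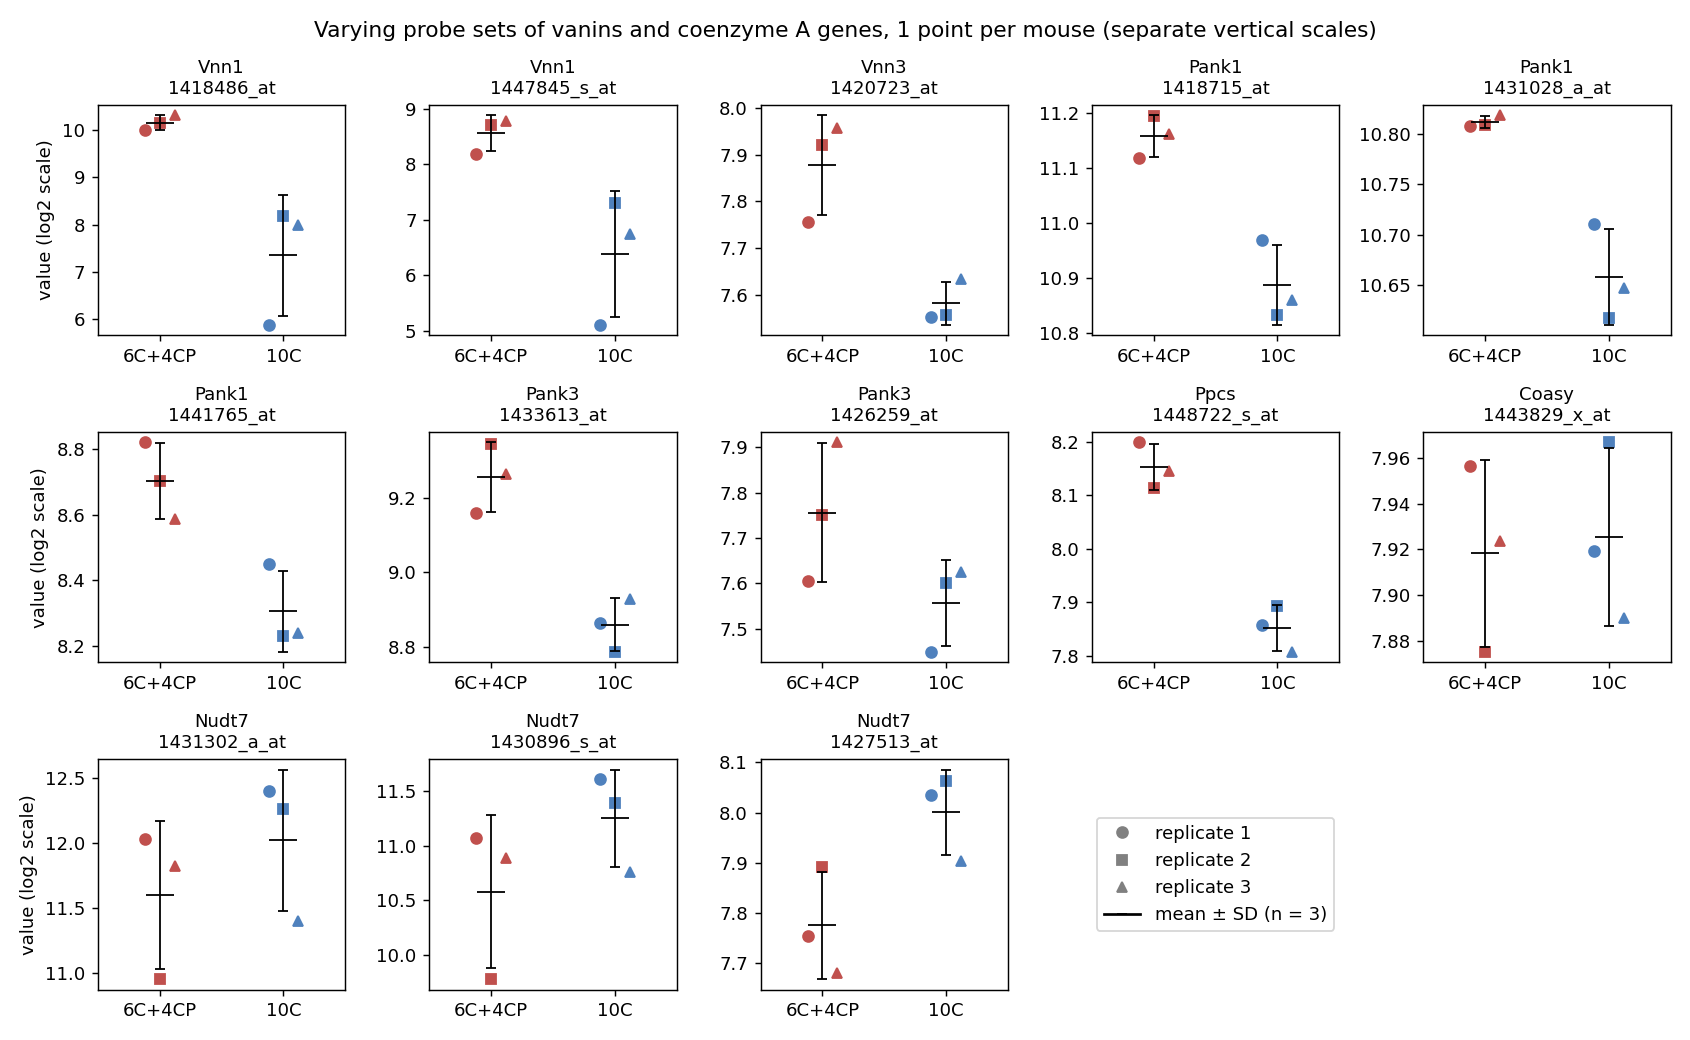
Values of the 13 varying probe sets on the log2 scale, 1 panel per probe set with its own vertical scale, 6C+4CP mice in red and 10C mice in blue, with symbols for replicate numbers and black marks for the mean ± SD of 3 mice. The diets do not overlap in 9 panels, and the wide panels are Vnn1, where 10C replicate 1 lies far below the other mice, and the 2 brighter probe sets of Nudt7.

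Vnn1, the main pantetheinase of mouse liver, showed the widest gap of the group. Its brighter probe set read 10.00, 10.14 and 10.31 in the 6C+4CP mice, against 5.88, 8.18 and 7.99 in the 10C mice. Every 6C+4CP mouse lay above every 10C mouse, with a gap of 1.82 between the nearest mice, and 10C replicate 1 stood apart at the low end. The means were 10.15 ± 0.15 in 6C+4CP and 7.35 ± 1.27 in 10C (SD, n = 3 each), a log2 difference of 2.80 (SE 0.74), or 6.96-fold higher. It was the fourth highest difference among the varying probe sets, and its absolute size exceeded that of 99.9% of them.

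The other Vnn1 probe set placed the mice in the same order. It read 8.19, 8.72 and 8.78 in the 6C+4CP mice, against 5.11, 7.30 and 6.74 in the 10C mice, again without overlap. The difference was 2.18 (SE 0.68), or 4.53-fold higher. In both probe sets 10C replicate 1 was the lowest mouse, followed by replicate 3 and replicate 2, and without 10C replicate 1 the differences were 2.07 and 1.54. Without 10C replicate 3 they were 3.12 and 2.36, and without 6C+4CP replicate 2 they were 2.80 and 2.10.

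The spread of Vnn1 among the 10C mice rested on replicate 1. At the brighter probe set the SD was 0.15 in 6C+4CP and 1.27 in 10C, and 0.13 in 10C without replicate 1, a value added after seeing the data. At the other probe set it was 0.32 in 6C+4CP and 1.14 in 10C, and 0.40 in 10C without that mouse. With all 3 mice, the SD in 6C+4CP exceeded that of 73.6% of varying probe sets at the brighter probe set and 93.0% at the other, and the SD in 10C exceeded that of 99.5% and 99.4%.

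Vnn3, the related pantetheinase, was higher by a much smaller amount. It read 7.76, 7.92 and 7.96 in the 6C+4CP mice, against 7.55, 7.56 and 7.63 in the 10C mice. The diets did not overlap, and the nearest mice were 0.12 apart. The means were 7.88 ± 0.11 in 6C+4CP and 7.58 ± 0.046 in 10C (SD, n = 3 each), a difference of 0.30 (SE 0.067), or 1.23-fold higher. Leaving out any 1 mouse gave 0.26 to 0.36. Its 10C mice were not ordered as for Vnn1: replicate 3 was the highest and replicates 1 and 2 were nearly equal.

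RefSeq promoter sequences (GRCm38.p6) were at hand for 8 of the 10 genes, with 12 starts, and not for Vnn1 and Coasy. The 250 bases before each start were searched on both strands for the letters AGGNCA repeated with 1 base between them, a direct repeat bound by PPARa with RXR and by HNF4A, for TATAAA and for CCAAT. The direct repeat was found in 0 of the 12, against 0.338% of 32851 promoters in the table, TATAAA in 1 of 12 (12.4% of all) and CCAAT in 5 of 12 (33.8% of all). These are matches of letters only. The promoters of Vnn3, Pank1, Pank3 and Ppcs are shown because their genes were higher in 6C+4CP without overlap, each read 5′ to 3′ on the strand of its gene with matches in capitals. The upper of the 2 Pank1 starts is the one at the higher coordinate. They differ from each other in what matched. Vnn3 holds 3 CCAAT matches, the upper Pank1 start 2 TATAAA matches only and the lower Pank1 start 2 CCAAT matches only. Pank3 holds 1 CCAAT match, and Ppcs holds none of the 3 motifs.
Vnn3 (chr10:23851212-23851461, plus strand): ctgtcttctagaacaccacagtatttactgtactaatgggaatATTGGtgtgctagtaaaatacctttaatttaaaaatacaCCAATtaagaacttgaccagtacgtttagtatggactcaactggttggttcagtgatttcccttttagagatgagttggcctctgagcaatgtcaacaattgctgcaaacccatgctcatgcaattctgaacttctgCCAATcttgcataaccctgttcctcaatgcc
Pank1 upper start (chr19:34879456-34879705, minus strand): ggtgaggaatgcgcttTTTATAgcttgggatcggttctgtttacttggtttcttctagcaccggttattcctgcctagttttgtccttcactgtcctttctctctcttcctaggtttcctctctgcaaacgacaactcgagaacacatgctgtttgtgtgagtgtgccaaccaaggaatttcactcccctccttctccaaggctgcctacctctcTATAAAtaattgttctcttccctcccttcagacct
Pank1 lower start (chr19:34877918-34878167, minus strand): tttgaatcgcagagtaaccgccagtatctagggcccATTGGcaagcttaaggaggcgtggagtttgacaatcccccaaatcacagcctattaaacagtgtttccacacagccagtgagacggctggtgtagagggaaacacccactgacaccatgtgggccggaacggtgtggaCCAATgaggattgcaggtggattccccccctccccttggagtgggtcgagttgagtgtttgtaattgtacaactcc
Pank3 (chr11:35769245-35769494, plus strand): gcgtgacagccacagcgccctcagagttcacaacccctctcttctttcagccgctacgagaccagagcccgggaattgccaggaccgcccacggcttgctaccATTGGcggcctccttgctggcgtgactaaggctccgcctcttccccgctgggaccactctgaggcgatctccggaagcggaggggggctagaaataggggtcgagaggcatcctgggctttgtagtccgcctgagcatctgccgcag
Ppcs (chr4:119422421-119422670, minus strand): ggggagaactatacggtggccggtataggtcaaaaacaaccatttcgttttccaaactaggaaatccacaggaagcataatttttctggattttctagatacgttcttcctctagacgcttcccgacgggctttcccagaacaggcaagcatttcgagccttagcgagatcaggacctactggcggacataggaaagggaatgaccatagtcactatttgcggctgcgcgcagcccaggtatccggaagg

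Pank1, the pantothenate kinase most abundant in mouse liver, was higher in 6C+4CP at all 3 of its varying probe sets, by small amounts. The brightest read 11.12, 11.19 and 11.16 in the 6C+4CP mice, against 10.97, 10.83 and 10.86 in the 10C mice. The means were 11.16 ± 0.038 in 6C+4CP and 10.89 ± 0.072 in 10C (SD, n = 3 each), a difference of 0.27 (SE 0.047), or 1.21-fold higher. No mouse of one diet fell in the range of the other.

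The next Pank1 probe set read 10.81, 10.81 and 10.82 in the 6C+4CP mice, against 10.71, 10.62 and 10.65 in the 10C mice, a difference of 0.15 (SE 0.028). The dimmer one read 8.82, 8.70 and 8.59 in the 6C+4CP mice, against 8.45, 8.23 and 8.24 in the 10C mice, a difference of 0.40 (SE 0.098), or 1.32-fold higher. The diets did not overlap in either. In all 3 probe sets 10C replicate 1, lowest of all mice in Vnn1, was the highest 10C mouse. The fourth Pank1 probe set held the shared value 6.37. Leaving out any 1 mouse, the 3 differences ran from 0.24 to 0.31, from 0.13 to 0.18 and from 0.34 to 0.47.

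Pank3, another pantothenate kinase of the cytosol, was also higher in 6C+4CP. Its brighter probe set read 9.16, 9.35 and 9.27 in the 6C+4CP mice, against 8.86, 8.79 and 8.93 in the 10C mice. The diets did not overlap. The means were 9.26 ± 0.094 in 6C+4CP and 8.86 ± 0.071 in 10C (SD, n = 3 each), a difference of 0.40 (SE 0.068), or 1.32-fold higher, and 0.35 to 0.45 without any 1 mouse.

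The dimmer Pank3 probe set agreed in direction but not in separation. It read 7.61, 7.75 and 7.91 in the 6C+4CP mice, against 7.45, 7.60 and 7.62 in the 10C mice. The lowest 6C+4CP mouse lay below the highest 10C mouse, and the difference of 0.20 (SE 0.10) was 0.12 without 6C+4CP replicate 3.

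Pank2, the kinase known in human for its mitochondrial form, gave no comparison. Its 3 probe sets held the shared values 7.14, 7.13 and 5.86 on all 6 arrays.

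Ppcs, which joins cysteine to phosphopantothenate, had the smallest p of the group in limma (adjusted p = 0.235, not past the threshold). It read 8.20, 8.11 and 8.15 in the 6C+4CP mice, against 7.86, 7.89 and 7.81 in the 10C mice. The nearest mice of the diets were 0.22 apart, more than the SD within either diet. The means were 8.15 ± 0.043 in 6C+4CP and 7.85 ± 0.043 in 10C (SD, n = 3 each), a difference of 0.30 (SE 0.035), or 1.23-fold higher. Without any 1 mouse it ran from 0.28 to 0.32.

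Of the enzymes after Ppcs, only Coasy could be compared, at 1 probe set. Ppcdc, the decarboxylase, gave no comparison, with the shared values 7.23, 6.64 and 6.54 at its 3 probe sets. Coasy, the enzyme of the last reactions, varied at 1 of 2 probe sets and read 7.96, 7.87 and 7.92 in the 6C+4CP mice, against 7.92, 7.97 and 7.89 in the 10C mice. The diets overlapped, and the difference was -0.0071 (SE 0.033), which turned positive without 6C+4CP replicate 2 (0.015) or 10C replicate 2 (0.014). The brighter Coasy probe set held the shared value 9.45.

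Nudt7, the peroxisomal coenzyme A hydrolase of liver, had lower means in 6C+4CP at all 3 varying probe sets. The brightest read 12.03, 10.95 and 11.82 in the 6C+4CP mice, against 12.40, 12.27 and 11.40 in the 10C mice. The diets overlapped, with 6C+4CP replicate 2 and 10C replicate 3 as the low mouse of each. The means were 11.60 ± 0.57 in 6C+4CP and 12.02 ± 0.54 in 10C (SD, n = 3 each), a difference of -0.42 (SE 0.46), or 1.34-fold lower. This difference rested on single mice, with -0.096 without 6C+4CP replicate 2, -0.64 without 6C+4CP replicate 1, -0.23 without 10C replicate 1 and -0.73 without 10C replicate 3.

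The next Nudt7 probe set showed the same low mice. It read 11.07, 9.78 and 10.89 in the 6C+4CP mice, against 11.61, 11.39 and 10.75 in the 10C mice, a difference of -0.67 (SE 0.48), or 1.60-fold lower, and -0.27 without 6C+4CP replicate 2. The low mice are the pair of arrays from different diets that correlated closely over all varying probe sets. The SD of Nudt7 at these 2 probe sets exceeded that of 96.3% and 93.9% of varying probe sets in 10C, and of 98.3% and 99.0% in 6C+4CP.

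The dimmer varying Nudt7 probe set separated the diets narrowly. It read 7.76, 7.89 and 7.68 in the 6C+4CP mice, against 8.04, 8.06 and 7.90 in the 10C mice, and the nearest mice were 0.013 apart. The difference was -0.23 (SE 0.079), or 1.17-fold lower, and -0.18 to -0.28 without any 1 mouse. Here 6C+4CP replicate 2, the low mouse of the brighter probe sets, was the highest of its diet. The fourth Nudt7 probe set held the shared value 6.85, and the 2 probe sets of Nudt19, a peroxisomal coenzyme A hydrolase best known from kidney, held 8.54 and 8.28.

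**Figure D2:**
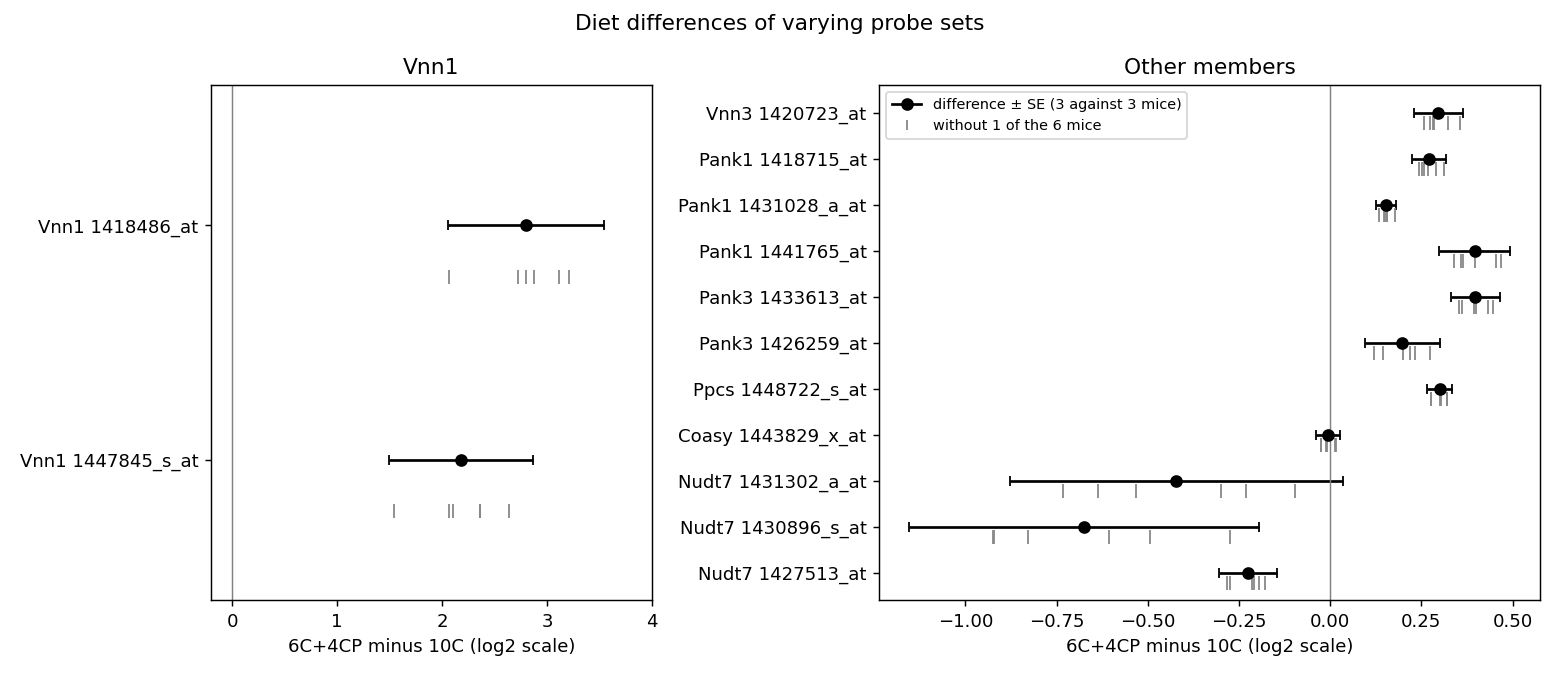
Differences between the diets (6C+4CP minus 10C, log2 scale) for the 13 varying probe sets, as points with SE bars, with grey ticks for the value without each of the 6 mice and separate horizontal scales for Vnn1 and the rest. The ticks of Vnn1, Vnn3, Pank1, Pank3 and Ppcs lie above 0, those of Nudt7 lie below 0 and spread widely at its 2 brighter probe sets, and those of Coasy fall on both sides.

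Vnn3, Pank1, Pank3 and Ppcs had differences of similar small size, but within a diet they did not order the mice alike. In 10C the highest mouse was replicate 3 for Vnn3 and Pank3, replicate 1 for Pank1 and replicate 2 for Ppcs. In 6C+4CP replicate 2 was the lowest mouse for Ppcs and the highest for Pank1 and Pank3. With each gene at its brightest varying probe set and centred on its own mean, the root mean square difference between any 2 of them over the 6 arrays was 0.068 to 0.11. Between Vnn1 and each of these 4 genes it was 1.41 to 1.49, and between Vnn1 and Nudt7 it was 1.90. These figures follow largely from the size of each gene's own difference and spread, and show no shared order of mice.

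The genes closest to Vnn1 by this measure, over 6 arrays and 5050 other genes with a varying probe set, were Slc22a5, Spc25, Pex11a, Cyp4a14 and Rab30. Slc22a5, the carnitine transporter of the cell surface, was nearest at 0.84 and had means of 9.70 in 6C+4CP and 7.92 in 10C. Spc25, a kinetochore protein of the Ndc80 complex, was at 0.88, Pex11a, which acts in peroxisome division, at 0.92, and Cyp4a14, a fatty acid hydroxylase, at 0.94. Rab30, a small GTPase of the Golgi, was at 0.96. All 5 were picked for this likeness, so their own differences are no further evidence. None of them had a 10C replicate 1 as far below its other 10C mice as Vnn1: Cyp4a14 read 4.76 there, against 5.57 and 7.91 in 10C replicates 2 and 3.

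**Figure D3:**
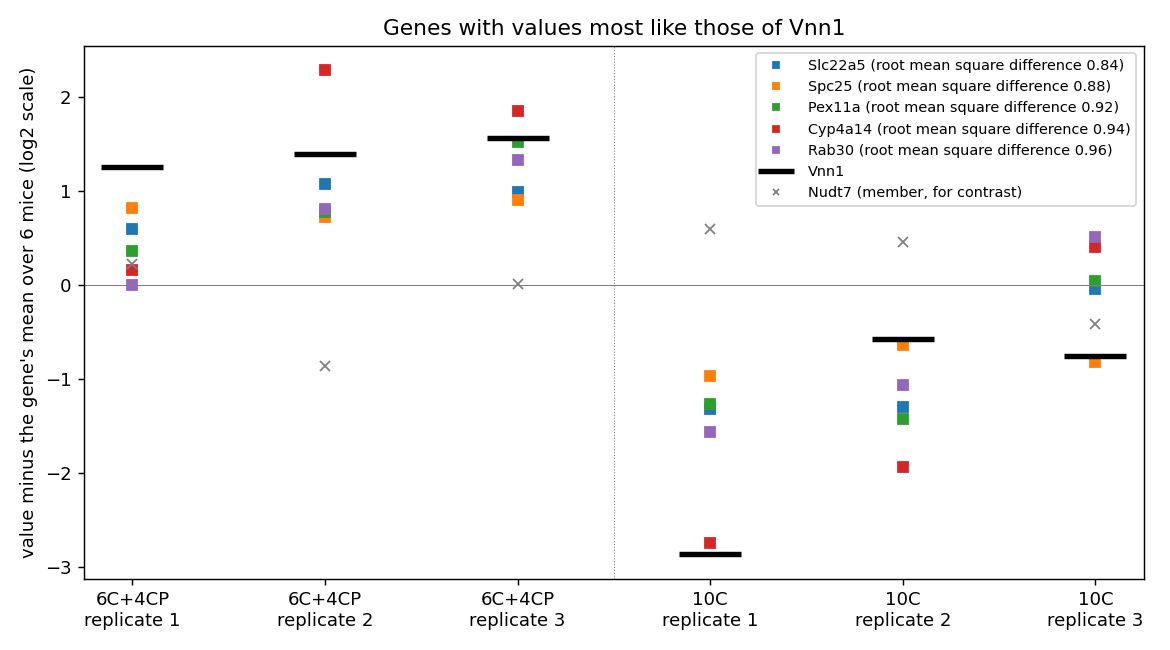
Values minus each gene's mean over the 6 mice (log2 scale), for Vnn1 as black bars, the 5 genes nearest to it as squares and Nudt7 as crosses, with 6C+4CP mice left of the dotted line and 10C mice right of it. Vnn1 and its neighbours lie above their means in 6C+4CP, apart from Rab30, which is at its mean in replicate 1, while in 10C replicate 3 the neighbours other than Spc25 are higher relative to their means than Vnn1.

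Other genes of coenzyme A handling gave few comparisons. Of 13 genes in 3 lists 12 had a probe set, of which 5 varied and 7 held shared values. Limma called 0 as higher and 0 as lower, with 0 at an unadjusted p under 0.05 (6.42% of all probe sets). None of the 5 separated the diets, against 19.9% of all varying probe sets, and 5 genes are too few to set against that share. Slc25a42, the mitochondrial carrier that imports coenzyme A, read 7.91, 8.24 and 8.23 in the 6C+4CP mice, against 7.25, 7.55 and 7.99 in the 10C mice, a difference of 0.53 (SE 0.24). Its highest 10C mouse was replicate 3, which lay above the lowest 6C+4CP mouse, and the difference was 0.73 without it.

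The other carrier, Slc25a16, differed by 0.13 (SE 0.10), and Slc5a6, which brings pantothenate into cells, held a shared value. Aasdhppt, which moves the phosphopantetheine arm of coenzyme A onto carrier proteins, differed by 0.13 (SE 0.20), while Pank4, Dcakd, Nudt8 and Enpp3 held shared values. On the side of cysteamine and taurine, Csad, which makes hypotaurine from cysteine sulfinate, read 9.77, 10.01 and 7.63 in the 6C+4CP mice, against 7.64, 8.38 and 7.93 in the 10C mice. Here 6C+4CP replicate 3 was the lowest of all 6, and the difference of 1.15 (SE 0.79) was 1.91 without it and 0.72 without 6C+4CP replicate 2. Cdo1, cysteine dioxygenase, differed by -0.053 (SE 0.098), and Ado and Fmo1 held shared values.

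PPARa and its textbook liver targets had higher means in 6C+4CP in all 15 measured genes of 18 listed. Limma called 0 of them (3 at an unadjusted p under 0.05, against 6.42% of all probe sets). Of the 15, all varying, 6 separated the diets, all higher in 6C+4CP (10.8% among all varying probe sets), and the median difference was 0.58. Those 6 were Plin2 (0.93, SE 0.31), Acaa1b (0.87, SE 0.34), Fgf21 (0.84, SE 0.33), Cpt1a (0.58, SE 0.14), Ppara (0.39, SE 0.096) and Fabp1 (0.19, SE 0.079). The widest differences of the list were those of Cyp4a14 (2.86, SE 1.15) and Acot1, an acyl-CoA thioesterase (2.7, SE 1.12). Pdk4, the pyruvate dehydrogenase kinase (1.77, SE 1.68), and Ehhadh of peroxisomal oxidation (1.24, SE 0.79) followed. In each of these widest genes the diets overlapped. The difference of Pdk4 moved with single mice: leaving out 6C+4CP replicate 1 gave 3.01 and leaving out replicate 2 of that diet gave 1.10, while leaving out 10C replicate 2 gave 1.17 and leaving out replicate 3 of that diet gave 2.90. Ehhadh differed by 0.79 without 6C+4CP replicate 3 and by 1.80 without 10C replicate 3. Cyp4a14 and Acot1 differed by 3.77 and 3.78 without 10C replicate 3. They differed by 2.43 and 2.57 without 6C+4CP replicate 2, and by 2.20 and 2.11 without 10C replicate 1. In 13 of the 15 the highest 10C mouse was replicate 3, whereas for Vnn1 it was replicate 2, for Pank1 replicate 1, and for Vnn3 and Pank3 replicate 3. The lowest 10C mouse was replicate 1 in 9 of the 15, as for Vnn1, whose 10C replicates 2 and 3 lay close together at 8.18 and 7.99.

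**Figure D4:**
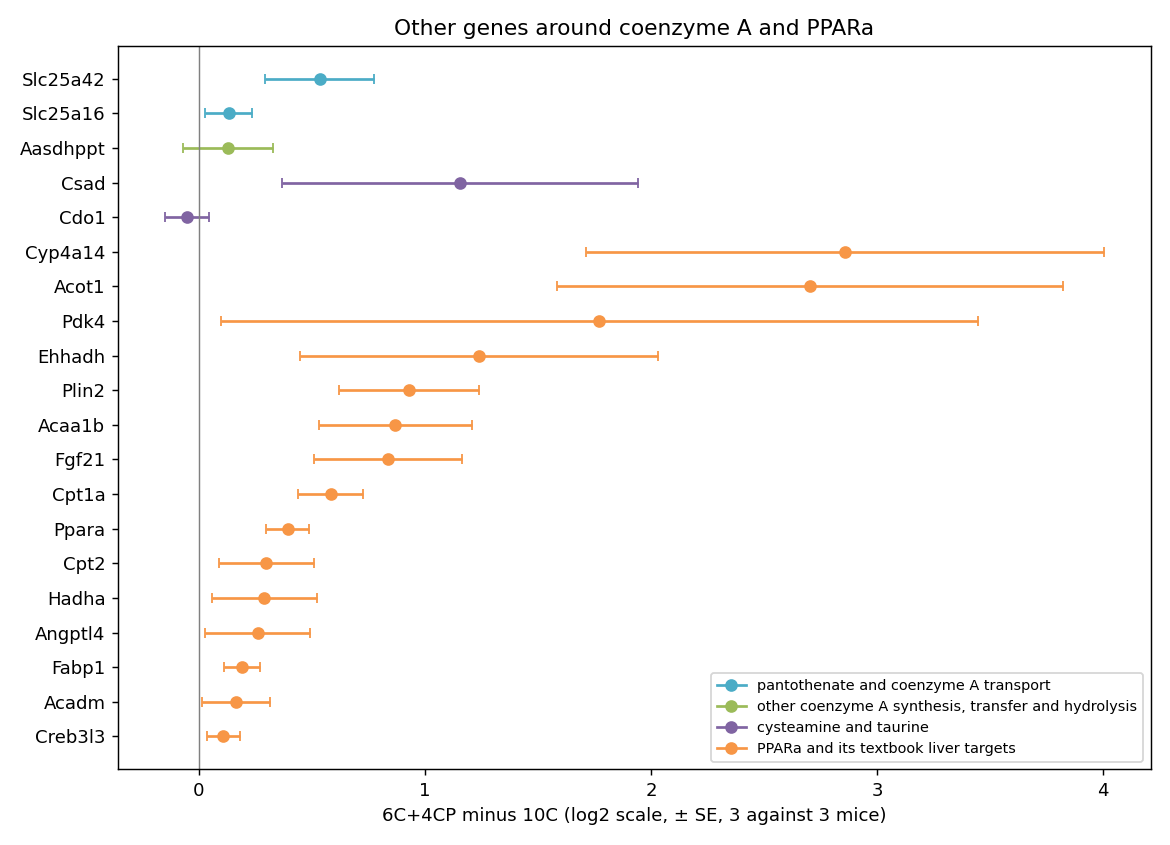
Differences between the diets (6C+4CP minus 10C, log2 scale, with SE) for the varying genes of 4 lists around coenzyme A and PPARa, coloured by list. The 15 genes of the PPARa list lie above 0, with the widest error bars for Cyp4a14, Acot1, Pdk4, Ehhadh and, in the taurine list, Csad.

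Markers of liver cell types were read beside these values. Of 57 markers measured 18 varied, and limma called 0 (5 at an unadjusted p under 0.05, against 6.42% of all probe sets). Among those 5, Reln of stellate cells was not varying (range 2.03e-07). Hepatocyte markers were among the highest values, with Alb at the shared value 14.23 and Ttr at 13.91 in 6C+4CP and 13.88 in 10C, and 5 of 6 varied, with a mean level of 12.93 to 13.11 on the 6C+4CP arrays and 12.88 to 13.04 on the 10C arrays. Of the 5 varying hepatocyte markers 3 had a higher mean in 6C+4CP and 2 a lower one. Tat, a hepatocyte enzyme of tyrosine breakdown, differed by 0.47 (SE 0.51) with overlap, and Hnf4a, a liver transcription factor, by 0.40 (SE 0.13) without overlap. Cps1 (-0.27, SE 0.042) and Apoa1 (-0.11, SE 0.025) were the lower ones, also without overlap. Among all varying probe sets 19.9% lay apart between the diets. Leaving out 1 mouse at a time put the difference of Tat between 0.15, where 10C replicate 1 was the one left out, and 0.84, where 6C+4CP replicate 1 was. Kupffer cell and macrophage markers varied in 5 of 8, with a mean level of 7.46 to 7.83 in 6C+4CP and 7.59 to 7.92 in 10C. Of these 5 markers 4 had a lower mean in 6C+4CP and 1 a higher one, all with overlap. Cd5l differed by -0.28 (SE 0.19), Vsig4 by -0.19 (SE 0.30) and Adgre1, the higher one, by 0.058 (SE 0.13). The direction of the lower markers depended on single mice. Without 6C+4CP replicate 2 Vsig4 (0.027) and Csf1r (0.017) turned positive, while Cd5l (-0.14) and Clec4f (-0.12) stayed negative. Without 10C replicate 3 Csf1r (0.035) and Clec4f (0.060) turned positive, while Cd5l (-0.18) and Vsig4 (-0.024) stayed negative.

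None of the measured markers varied for neutrophils (5 measured), sinusoidal endothelium (6), cholangiocytes (4), T or NK cells (4) and adipocytes (3). Of the rest 3 of 6 varied for stellate cells, 2 of 5 for kidney tubule and intestine, 1 of 4 for B cells, 1 of 3 for erythroid cells and 1 of 3 for pancreatic acinar cells. Col3a1 (0.14, SE 0.21) and Dcn (-0.056, SE 0.069) of stellate cells, Alas2 (0.13, SE 0.055) of erythroid cells, Cela1 (-0.057, SE 0.26) of acinar cells and Fabp2 (0.12, SE 0.068) of intestine overlapped between the diets. Only Ighm, of B cells, at -0.66 (SE 0.17), and Vil1, of intestine and kidney, at 0.091 (SE 0.039), separated the diets among these. Their part in the differences of the coenzyme A genes was not tested.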

How the data were processed

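Total RNA from liver of 6 mice was measured on 1 Affymetrix 3' array each, labelled from 100 ng per the labels' protocols. The authors deposited log2-like values in 1 table, made with R 2.7.2 per the submitters' processing notes. How probes were background-corrected and summarised, and the base of the logarithm, is not given in the sources available. Groups and replicate numbers come from the sample titles.

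Of 45101 probe sets 64 Affymetrix controls were left out. GEO's platform annotation gave 1 symbol for 34945, several for 932 and none for 9160, and only the first kind named a gene. The brightest varying probe set stands for a gene. The diet contrast was fitted in limma 3.58.1 under R 4.3.3 (linear model, empirical Bayes without trend, no covariates, two-sided, Benjamini-Hochberg over 45037 probe sets). A run of the fit on simulated data used shifts larger than any member difference, so it does not cover differences of their size. SEs are those of the linear model before moderation. The precision is limited by the number of arrays. The p-values rest on the spread between 3 mice a diet, moderated in limma over all 45037 probe sets, most of them not varying. They do not measure the spread among the 12 mice fed per diet.

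The members and lists were chosen with earlier results of these data known. All members are named, and the 5 genes nearest to Vnn1. From each list the called genes and up to 4 others with the largest difference are named (up to 2 for cell types, with Alb and Ttr). Cps1, Apoa1, Adgre1, Csf1r, Clec4f, Reln and the PPARa list genes that separated the diets were added after seeing the data. Alternatives were a replicate block, leaving out each array, other normalizations, filters, variance models and thresholds. Protein sequences were not used here.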

Additional observations from a re-analysis of the deposited data

How the results depend on the processing

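Over 13 alternatives, 168 differences of varying members were recomputed, all within 1 pooled SD of the value given. The sign was the same in 166 and opposite in 2, both of Coasy. Filters, the replicate block and variance models leave a difference unchanged by construction. Leaving out 1 of 3 arrays cannot move it by 1 pooled SD. Only the other normalizations could have gone beyond that bound, so no stability is read from the count. None of the 168 was called by limma, with adjusted p from 0.0669 to 1. The median difference of 0.27 ran from 0.24 to 0.28 without any 1 array and was 0.29 after quantile normalization. Ranges over 0.05 and 0.1 left 13 and 12 varying members. The 109 probe sets called over the whole table depended on the setting: 285 to 398 without any 1 array, 3 with the replicate number as a block, 1 after quantile normalization, 0 after median centring (limma, 1202 at an unadjusted p under 0.05), 0 among the brighter probe sets (1842), 0 among varying ones (1140), 1 with a range over 0.1, and 0 with an intensity trend and robust estimation (2685). The cause was not tested. Same-numbered mice of the 2 diets share only a number: their deviations correlated at 0.477, -0.0893 and 0.0847, 6C+4CP replicate 2 correlated best with 10C replicate 3 (0.401), and the replicate block changed no call of a member. The log base is not given, signal over background was not used here, and 11 of 24 members hold shared values.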

Other observations

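A further probe set is annotated to both Ppcs and Gm8465 and was left out of the group. It read 7.17, 6.98 and 7.16 in the 6C+4CP mice, against 6.81, 6.87 and 6.71 in the 10C mice. The diets did not overlap, and the difference was 0.31 (SE 0.077), close to the 0.30 of the probe set that names Ppcs alone. It cannot be told from these values which of the genes was measured.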
